A study of Mus musculus with 4 samples.

Results

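Genes for the repair of DNA double-strand breaks and of DNA crosslinks were compared between mouse pre-B cells carrying a hairpin against Myb and the same cells carrying a control hairpin. The set comprised 35 genes, taken by symbol from the 23420 rows of the count files, and all 35 were found and passed the filter on low counts. Of these, 27 belong to homologous recombination, break sensing or the Fanconi pathway, and 8 belong to end joining. The shMyb group was an Irf4/8-/- large pre-B cell line whose cells had been transduced with a retrovirus for GFP and a hairpin against Myb. The shLuc group was that line with a hairpin against luciferase. Cells of both groups lack the transcription factors Irf4 and Irf8, were kept on OP9 stromal feeder cells in 10 ng/ml of interleukin 7, and were sorted as GFP+ at 72 hours. Each group had 2 RNA-seq libraries from duplicate sets of 12 wells. All came from 1 line, p-values therefore rest on the variation between duplicate sets of transduced wells, which may be technical, and whether that line is a clone is not given in the sources used here. Myb, the targeted gene, was not lower in the libraries labelled shMyb, at 617 and 639 CPM (counts scaled to a common library total), against 616 and 600 CPM in those labelled shLuc (log2 fold change 0.046, SE 0.04, edgeR adjusted p = 0.283). The names shMyb and shLuc therefore stand for libraries labelled so, and every higher or lower below is between those labels.

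A double-strand break can be repaired by homologous recombination, which copies an intact sister chromatid and is used in S and G2 phase, or by non-homologous end joining, which ligates the ends directly. The Fanconi proteins act on crosslinks between DNA strands and hand their repair to the recombination proteins. In developing B cells end joining has a programmed task as well, because the RAG recombinase cuts the immunoglobulin loci and the end joining proteins close those cuts. Large pre-B cells divide rapidly, and many recombination and Fanconi genes are textbook targets of the E2F factors that drive S phase.

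Motifs were searched in promoter sequences, which the choice of the members did not use. RefSeq windows of 300 bases (250 before to 50 after the gene start, GRCm38.p6) were found for 30 of the 35 members, and Xrcc2, Rad50, Nbn, Fancd2 and Prkdc had none in the table. An E2F motif was searched on both strands as GCGGGAA or TTTGGCGC, and 13 of the 30 members held it (43.3%). It was present in 5.79% of the 27025 genes with a window and in 10.9% of the 9326 of them that were tested here. Among recombination, sensing and Fanconi genes 11 of 23 held it, and among end joining genes 2 of 7. The stretches around the match are shown because E2F factors are textbook regulators of many of these genes. Each is written 5′ to 3′ on the gene's strand, with up to 10 flanking bases and the match in capitals:
Brca2: ttaggccacaGCGGGAAacagacacac
Bard1: gccgctcagtTTCCCGCtcaggaagtt
Rad51c: ccccgcgaggGCGGGAAaagcaagggg
Rad52: tgctgcggctGCGGGAAggctgatcgc
Atm: agagccggaaGCGGGAAggcgtgcgta
Chek1: gcaggttttgGCGGGAA
Chek2: gggattagccGCGGGAAaccaagacgt
Fancb: cggggtagagGCGGGAAtaagtgctct
Fancg: tcttttcagtTTCCCGCggaaccgtct
Fanci: gtggagtagaGCGGGAAttttggaagg
Fancm: accaatcatcTTCCCGCcgcaaaatcg
Xrcc4: cccgctgtgcTTCCCGCtcgctccagc
Xrcc6: gggggtggaaGCGGGAAatgcgagtgg

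Every match was to GCGGGAA or its reverse complement TTCCCGC. The match began between 5 and 208 bases from the gene start, upstream in 10 genes and downstream in 3. Members with the motif were found among those lower in shMyb (Chek1, Fancb, Xrcc4), among those higher (Atm, Fancg) and among those that did not pass the test. A MYB motif, searched as CAACNG or TAACNG on both strands, was in 14 of the 30 members (46.7%), with 9 of 23 recombination, sensing and Fanconi genes and 5 of 7 end joining genes, and in 4663 of the 9326 tested genes with a window. It was in 4 of 5 members called higher, 2 of 7 called lower and 8 of 18 not called. The cell cycle element CHR, searched as TTTGAA or TTCGAA, was in 2 of 30 members, Bard1 and Atr, and in 16.1% of tested genes. These are matches of letters and not measured binding sites, and the motifs were chosen with the results known.

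The whole windows of the members with the lowest and the highest log2 fold change are given next, at chr9:36726609-36726908 on the minus strand for Chek1 and at chr2:3423881-3424180 on the plus strand for Dclre1c. Capitals mark the E2F match in Chek1, which begins at position 44 after the start, and the MYB match in Dclre1c, which begins 120 bases before it. These starts are those of RefSeq, and the Chek1 window lies inside the longer GENCODE span of the gene given further on:
Chek1: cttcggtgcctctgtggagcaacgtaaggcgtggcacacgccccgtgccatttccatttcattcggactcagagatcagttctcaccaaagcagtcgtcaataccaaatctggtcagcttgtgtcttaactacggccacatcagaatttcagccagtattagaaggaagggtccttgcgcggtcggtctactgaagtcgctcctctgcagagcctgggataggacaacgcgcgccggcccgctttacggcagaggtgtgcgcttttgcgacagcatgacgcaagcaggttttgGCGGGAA
Dclre1c: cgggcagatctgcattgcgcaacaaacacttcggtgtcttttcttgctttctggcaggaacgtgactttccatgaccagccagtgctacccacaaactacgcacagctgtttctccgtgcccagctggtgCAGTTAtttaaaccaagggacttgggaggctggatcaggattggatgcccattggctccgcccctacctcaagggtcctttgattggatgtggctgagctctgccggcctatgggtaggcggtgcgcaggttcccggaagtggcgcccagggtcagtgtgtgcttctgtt

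The libraries held between 36573743 and 44682954 counts, and a member had between 117 and 14677 counts in a library. Of the B-lineage genes, the antigen receptor subunits Cd79a (0.22) and Cd79b (0.16) and the transcription factor Pax5 (0.21) were called higher in shMyb, the surrogate light chain genes Vpreb1 (-0.29) and Igll1 (-0.37) and the adaptor Blnk (-0.09) lower, and Ebf1 (0.03) did not pass; all 7 were at 151 CPM or more in every library. The summed level of 11 stromal markers was 112 and 116 CPM in shMyb against 81.6 and 64.9 CPM in shLuc. Of these markers 3 rose (Thy1, Sparc and Postn) and 2 fell (Fn1 and Cxcl12). Thy1 made up 62.5 and 58.8 CPM of the sums in shMyb, against 12.9 and 11.7 CPM in shLuc. Fn1 was at 6.96 and 7.40 CPM in shMyb against 22.7 and 18.6 CPM in shLuc, and Lum was at 0 in all but 1 library. The summed level of 8 myeloid markers was 6.60 and 7.70 CPM against 3.85 and 3.33 CPM, with Elane at 0 throughout. Of 7 T cell markers Cd4 and Cd8a were at 0, and Lck, which pre-B cells also express, gave 118 and 111 CPM of their summed 119.8 and 113 CPM in shMyb, against 96.9 and 99.1 CPM of 98.9 and 101 CPM in shLuc. What part such cells have in the values of the repair genes was not tested.

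The main result was a divided pattern of small differences. Of the genes of homologous recombination proper only Xrcc2 passed the test. Of the break sensing and kinase genes Mre11a, Nbn and Chek1 were lower in the libraries labelled shMyb, and Atm was higher. Of the Fanconi genes Fancb, Fancf and Fancl were lower, Fancg was higher and the others did not pass. These Fanconi calls and that of Atm ended with DESeq2. End joining genes moved in both directions, with the nuclease gene Dclre1c 1.60-fold higher. Of the 35 members 6 were called higher and 9 lower at an adjusted p below 0.05, and 20 did not pass. That is 42.9% called, against 62.2% of all 12610 tested genes (30.6% higher and 31.7% lower). Of the 27 recombination, sensing and Fanconi genes 2 were higher and 7 lower, with a median log2 fold change of -0.06 (0.0050 with libraries scaled by their totals alone). Of the 8 end joining genes 4 were higher and 2 lower, with a median of 0.09, where the median of all tested genes was 0.0048. Among the 4021 tested genes within the members' interquartile range of mean abundance, the median was -0.04, with 38.1% lower and 27.2% higher. Scaled by library totals alone, 9 members were higher and 7 lower, and the share of higher genes among all called genes was 60.1%, against 49.1% with TMM. With DESeq2, 4 members were higher and 5 lower. The difference between the recombination and end joining genes was not tested. In bulk RNA, a difference in the share of cells at a stage and a difference in RNA per cell cannot be told apart.

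**Figure D1:**
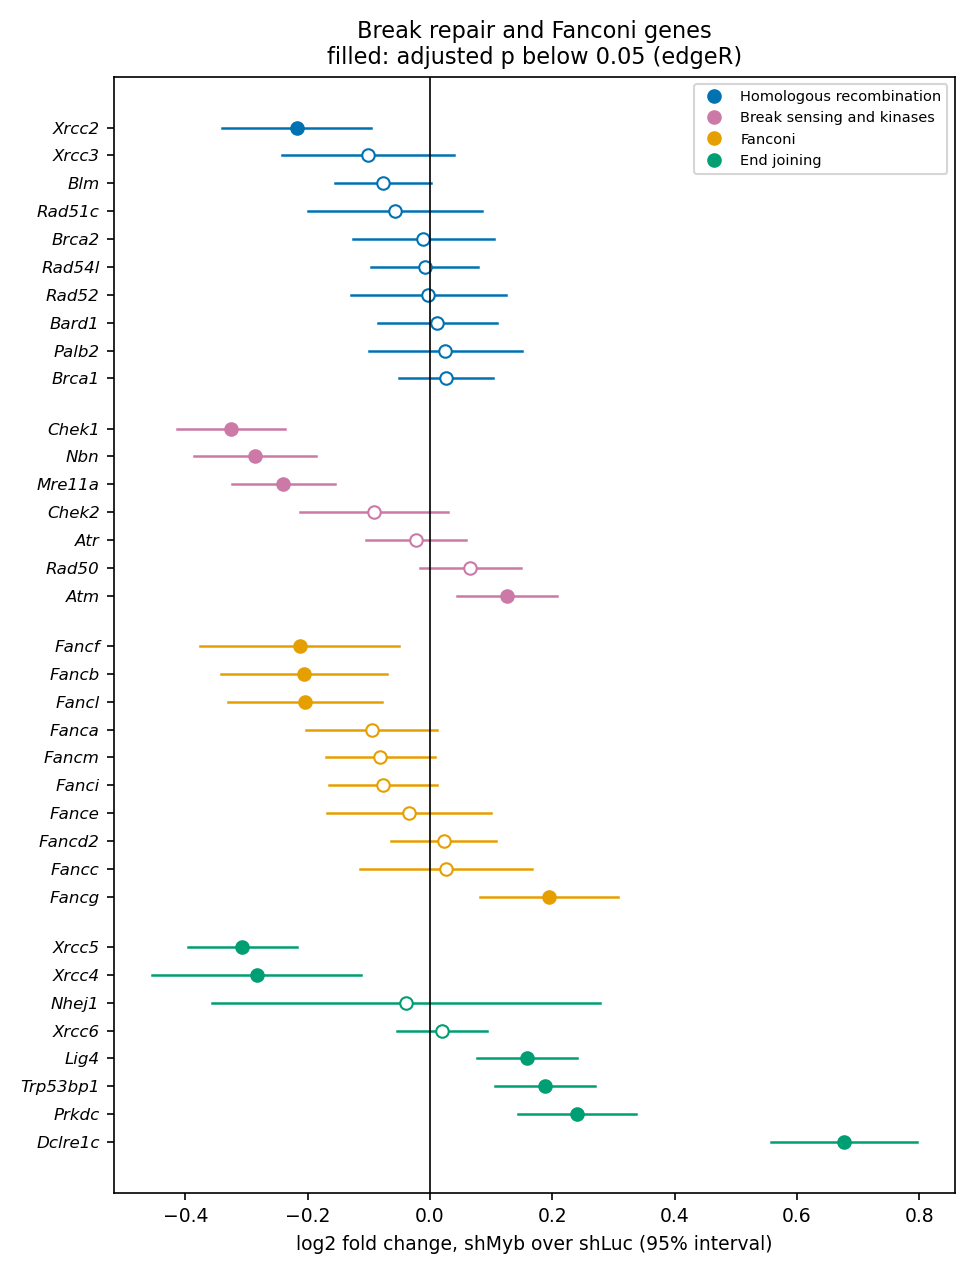
The log2 fold change of each of the 35 members, shMyb over shLuc, is drawn as a point with its 95% interval, in 4 role groups; filled points passed the test at an adjusted p below 0.05. Of the 10 genes of homologous recombination only Xrcc2 is filled, where 62.2% of all tested genes passed. End joining genes spread from -0.31 (Xrcc5) to 0.68 (Dclre1c).

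In single libraries, relative to the mean of the shLuc libraries, the median recombination, sensing or Fanconi gene was at -0.03 and -0.02 on the log2 scale in the shMyb libraries, against 0.0067 and -0.0067 in shLuc. The median end joining gene was at 0.09 and 0.10 in shMyb, against 0.0069 and -0.0069 in shLuc. In both sets the shLuc values mirror each other by construction, because each gene was set against the mean of these libraries. Groups did not overlap for 20 members, 7 with shMyb higher and 13 with shMyb lower, against 82.1% of all tested genes (41.0% higher and 41.2% lower). All members together took 0.215% and 0.221% of the counts in shMyb and 0.211% and 0.205% in shLuc. Their summed TMM-scaled level overlapped between groups, at 2118 and 2148 CPM in shMyb and 2148 and 2107 CPM in shLuc.

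Homologous recombination. Of 10 genes 1 was lower, none was higher and 9 did not pass, where 62.2% of all tested genes were called. Their log2 fold changes ran from -0.22 to 0.03. Brca1, which with its partner Bard1 steers a break into recombination, was at 112 and 114 CPM in shMyb and 112 and 110 CPM in shLuc. The groups overlapped, and the 95% interval of its log2 fold change was -0.05 to 0.10. Brca1 was called higher with library totals alone (0.089, adjusted p = 0.0386) and in none of the other alternatives. Brca2, a central protein of recombination, was at 64.8 and 66.9 CPM in shMyb and 70.8 and 62.1 CPM in shLuc. Here the shLuc libraries lay on either side of both shMyb libraries (-0.01, interval -0.13 to 0.10). Palb2, which links BRCA1 to BRCA2, was at 0.03, and Bard1 at 0.01. Rad54l, a motor protein that aids strand invasion, was at -0.0089, and Rad52, a strand annealing protein, at -0.0025. Xrcc2, Xrcc3 and Rad51c differed in the call. Xrcc2 fell to 21.8 and 21.9 CPM in shMyb, against 24.6 and 26.2 CPM in shLuc (-0.22, SE 0.06, adjusted p = 0.00257). The Xrcc2 call ended without shLuc replicate 2 (-0.17, adjusted p = 0.0763). Xrcc3 (-0.10, adjusted p = 0.198) and Rad51c (-0.06, adjusted p = 0.48) did not pass. Blm, a helicase that takes recombination intermediates apart, was at 86.4 and 85.8 CPM in shMyb and 91.2 and 90.3 CPM in shLuc, without overlap, but missed the threshold (-0.08, adjusted p = 0.081).

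Break sensing and checkpoint kinases. The sensor complex of MRE11, RAD50 and NBN binds broken ends and activates the kinase ATM, and its genes did not move together. Mre11a, the nuclease, fell to 69.2 and 67.4 CPM in shMyb, against 79.0 and 82.2 CPM in shLuc (-0.24, SE 0.04, adjusted p = 1.65e-05). Nbn, the subunit that recruits ATM, fell to 34.5 and 33.6 CPM, against 42.0 and 41.1 CPM in shLuc (-0.29, SE 0.05, adjusted p = 1.53e-05). Both genes were lower in each shMyb library than in either shLuc library. Rad50, the bridging ATPase, had 115 and 124 CPM in shMyb and 113 and 116 CPM in shLuc, which overlap (0.07, adjusted p = 0.157). Rad50 was called higher with library totals alone (0.13), cyclic loess offsets (0.11), GC and length offsets (0.13) and without shMyb replicate 1 (0.12). An exon of Mre11a overlaps Ankrd49 on the opposite strand, and Ankrd49 was also lower (-0.23); its part in the Mre11a count was not tested.

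Chek1, the checkpoint kinase that acts below ATR at stalled forks (chromosome 9, 36708482 to 36727065, minus strand), had the lowest log2 fold change of the set. It fell to 51.3 and 53.3 CPM in shMyb, against 66.2 and 64.9 CPM in shLuc (-0.33, SE 0.04, adjusted p = 4.56e-07), which is 0.798-fold. Of all tested genes 14.2% had a lower log2 fold change than Chek1. Atr, its upstream kinase, had 101 and 102 CPM in shMyb and 106 and 99.7 CPM in shLuc, with overlap (-0.02, interval -0.10 to 0.06). Atm, the kinase that responds to open breaks, was the only kinase of the group called higher, at 160 and 164 CPM in shMyb against 154 and 143 CPM in shLuc (0.13, SE 0.04, adjusted p = 0.00794). The Atm call ended with DESeq2 (0.11, adjusted p = 0.051) and without shLuc replicate 2 (0.07, adjusted p = 0.215). Chek2, which acts below ATM, did not pass (-0.09, adjusted p = 0.178), although it was called lower without shMyb replicate 2 (-0.17, adjusted p = 0.0262).

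Fanconi genes. Of 10 genes 1 was higher, 3 were lower and 6 did not pass, where 62.2% of all tested genes were called. The core complex is a ubiquitin ligase, and the genes called in either direction all encode its subunits. Fancl, the catalytic subunit, was at 21.5 and 19.9 CPM in shMyb against 24.0 and 23.8 CPM in shLuc (-0.20, SE 0.06, adjusted p = 0.00533). Fancb, which sits with FANCL in the catalytic module, was at 17.0 and 18.5 CPM against 19.8 and 21.0 CPM in shLuc (-0.21, SE 0.07, adjusted p = 0.00868). Fancf, an adaptor subunit, was at 13.5 and 11.6 CPM against 14.8 and 14.3 CPM in shLuc (-0.21, SE 0.08, adjusted p = 0.0218). Fancg rose instead, to 31.9 and 35.02 CPM in shMyb against 29.5 and 28.9 CPM in shLuc (0.19, SE 0.05, adjusted p = 0.00345). On the opposite strand, Vrk2 overlaps exons of Fancl and was also lower (-0.23, adjusted p = 0.00232) at a similar level, and Gas2 overlaps exons of Fancf and did not pass (0.14); their part in these counts was not tested. None of the 4 called Fanconi genes had overlapping groups, and neither did 82.1% of all tested genes. Each of these 4 calls ended with DESeq2, at adjusted p = 0.0664 for Fancl, 0.0928 for Fancb, 0.149 for Fancf and 0.0758 for Fancg. Fancl and Fancg were also lost without shMyb replicate 2 (adjusted p = 0.0721 and 0.0866), Fancb and Fancf with library totals alone (0.0715 and 0.113), and Fancf without shMyb replicate 2 (0.311) or shLuc replicate 1 (0.0797). Fancb was lost without shMyb replicate 1 (0.0962) or shLuc replicate 2 (0.117). With GC and length offsets Fancb and Fancl were at -0.08 and -0.07 and were not called.

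The substrates of that ligase, FANCD2 and FANCI, form the clamp that marks a crosslink. Fancd2 had 67.1 and 70.2 CPM in shMyb and 67.9 and 67.3 CPM in shLuc (0.02, interval -0.06 to 0.11), which overlap. Fanci had 53.0 and 52.5 CPM in shMyb and 55.8 and 55.6 CPM in shLuc, without overlap, and did not pass (-0.08, adjusted p = 0.118). Fancm, the translocase that brings the core complex to DNA (-0.08), and the core genes Fanca (-0.09), Fance (-0.03) and Fancc (0.03) did not pass. Fanca and Fance were called lower with GC and length offsets, at -0.20 and -0.25, and Xrcc3 likewise at -0.22. Fancm was called lower without shMyb replicate 2 (-0.14).

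End joining. Of 8 genes 4 were higher and 2 lower, so 6 of 8 were called, against 62.2% of all tested genes. Dclre1c encodes Artemis, the nuclease that opens the hairpin ends left by the RAG recombinase (chromosome 2, 3424131 to 3464130, plus strand). It rose to 41.3 and 44.8 CPM in shMyb, against 28.5 and 25.5 CPM in shLuc (log2 fold change 0.68, SE 0.06, adjusted p = 1.16e-09). Both shMyb libraries were well above both shLuc libraries, and 86.9% of tested genes had a lower log2 fold change. An exon of Dclre1c overlaps Suv39h2 on the opposite strand, and Suv39h2 was lower in shMyb (-0.40); its part in the Dclre1c count was not tested. Prkdc, the catalytic subunit of the DNA-dependent protein kinase that activates Artemis (chromosome 16, 15637866 to 15842235, plus strand), rose to 109 and 111 CPM in shMyb, against 98.1 and 87.7 CPM in shLuc (0.24, SE 0.05, adjusted p = 0.000166). Lig4, the ligase of the pathway, rose to 88.8 and 93.6 CPM, against 82.5 and 80.9 CPM in shLuc (0.16, SE 0.04, adjusted p = 0.00128). Trp53bp1, whose protein 53BP1 shields ends from resection, rose to 98.9 and 104 CPM, against 90.7 and 87.8 CPM in shLuc (0.19, SE 0.04, adjusted p = 0.000221). An exon of Trp53bp1 overlaps Tubgcp4 on the opposite strand, which was at 0.04 and not called.

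Xrcc5 and Xrcc6 encode Ku80 and Ku70, the ring that first binds a broken end. Xrcc5 (chromosome 1, 72307421 to 72394952, plus strand) fell to 61.1 and 56.8 CPM in shMyb, against 72.9 and 73.0 CPM in shLuc (-0.31, SE 0.04, adjusted p = 1.28e-06). Xrcc6 had 344 and 338 CPM in shMyb and 336 and 337 CPM in shLuc, a difference that did not pass (0.02, interval -0.05 to 0.09). Xrcc6 was called higher with library totals alone (0.08, adjusted p = 0.0305) and with cyclic loess offsets (0.10, adjusted p = 0.00766), and with GC and length offsets it was at -0.04. An exon of Xrcc6 overlaps Desi1 on the opposite strand. Desi1 was lower, at 171 and 164 CPM in shMyb against 205 and 202 CPM in shLuc (-0.28, adjusted p = 4.5e-07). Its part in the Xrcc6 count was not tested. Xrcc4, the scaffold that holds ligase IV, was at 10.8 and 9.80 CPM in shMyb against 11.9 and 13.1 CPM in shLuc (-0.28, SE 0.08, adjusted p = 0.00471). An exon of Xrcc4 overlaps Tmem167 on the opposite strand, which was more abundant, at 118 and 113 CPM in shMyb and 135 and 134 CPM in shLuc, and was also lower (-0.22, adjusted p = 1.55e-05); its part in the Xrcc4 count was not tested. The Xrcc4 call ended with DESeq2 (adjusted p = 0.0719), with GC and length offsets (0.0895) and without shLuc replicate 2 (0.0953). Nhej1, which encodes the XRCC4-like factor, was at 3.54 and 3.12 CPM in shMyb and 3.30 and 3.53 CPM in shLuc, and its wide interval, -0.36 to 0.28, leaves a difference not detectable at this depth.

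**Figure D2:**
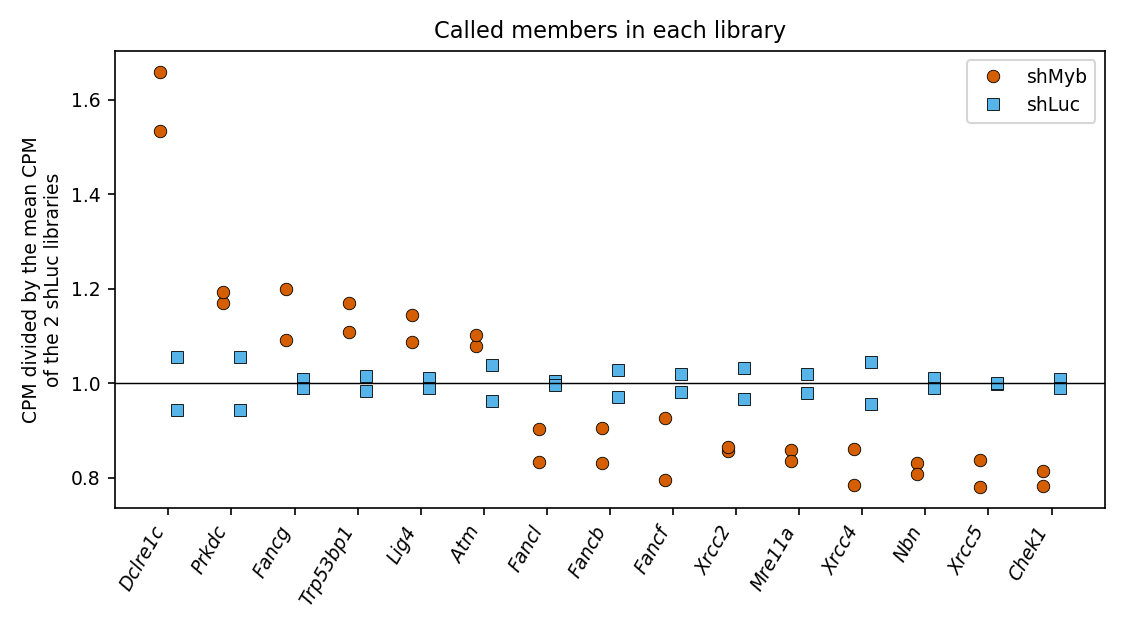
CPM of the 15 called members in each library, divided by the mean CPM of the shLuc libraries for that gene; circles are shMyb and squares shLuc, and the line marks 1. Dclre1c stands above the other members in both shMyb libraries. In all 15 genes, which are drawn because they passed the test, the groups do not overlap, and neither do they in 82.1% of all tested genes.

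Genes whose proteins work as partners can be compared without any scaling between libraries, as the ratio of their RNA counts within a library. Protein was not measured. Pairs were chosen after the values were seen. They came from known complexes, except Chek1/Atr and Chek2/Atm, each a kinase with its upstream kinase. For 11 such pairs the groups overlapped in 2, and the ratio was lower in shMyb in 7 and higher in 2. Over single tested genes, 82.1% had groups that did not overlap in CPM, which is another measure, and no such share was computed over ratios of gene pairs. The count of Xrcc5 per count of Xrcc6 was 0.177 and 0.168 in shMyb and 0.217 and 0.217 in shLuc. Xrcc4 per Lig4 was 0.121 and 0.105 in shMyb and 0.145 and 0.162 in shLuc. Both ratios were lower in each shMyb library, 0.797-fold for the Ku pair and 0.737-fold for the ligase pair. Dclre1c per Prkdc was 0.381 and 0.404 in shMyb and 0.290 and 0.290 in shLuc, 1.35-fold higher in shMyb. Mre11a per Rad50 was 0.602 and 0.542 in shMyb and 0.700 and 0.712 in shLuc, and Nbn per Rad50 was 0.3002 and 0.2704 against 0.372 and 0.356. Chek1 per Atr was 0.507 and 0.525 in shMyb and 0.623 and 0.651 in shLuc. By contrast Bard1 per Brca1, at 0.434 and 0.402 in shMyb and 0.430 and 0.414 in shLuc, overlapped between groups, and so did Brca2 per Palb2. An exact two-sided permutation test of 2 libraries against 2 cannot go below p = 0.333, which each ratio without overlap gave.

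**Figure D3:**
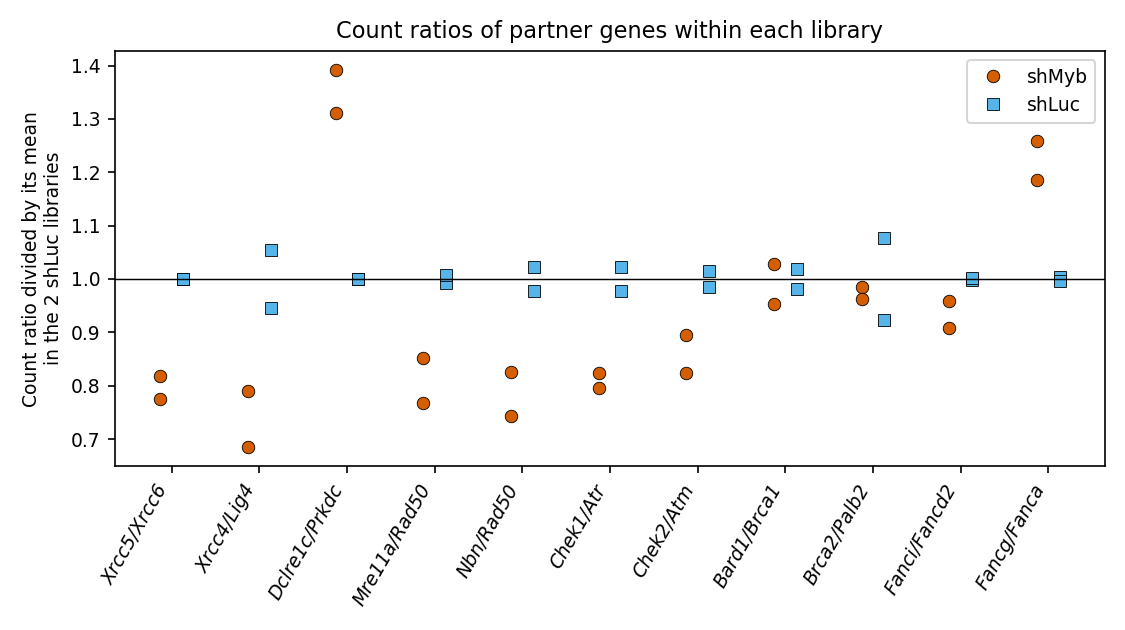
Count ratios of 11 pairs of partner genes within each library, divided by the mean ratio of the shLuc libraries; circles are shMyb and squares shLuc. Dclre1c/Prkdc and Fancg/Fanca lie above 1 in shMyb, Bard1/Brca1 and Brca2/Palb2 overlap, and the other 7 pairs lie below 1.

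Members called higher had longer transcripts than members called lower. The 6 members called higher had a longest annotated transcript of 2974 to 12647 bases (median 8348), and the 9 called lower had 1691 to 5660 bases (median 2980). Across the 35 members, which are not independent replicates, log2 fold change and length correlated at a Spearman rho of 0.50, and across 12493 tested genes at 0.10. Over all tested genes the median log2 fold change was -0.08 below 2000 bases, -0.01 from 2000 to 4000, 0.05 from 4000 to 8000 and 0.12 from 8000 bases. With offsets fitted to GC content and length, Dclre1c was at 0.74, Chek1 at -0.21, Xrcc5 at -0.21, Nbn at -0.17 and Lig4 at 0.25, all still called. Xrcc4 (-0.16), Fancb (-0.08) and Fancl (-0.07) were no longer called with these offsets. Fanca (-0.20), Fance (-0.25), Xrcc3 (-0.22) and Rad50 (0.13) were called only then or in few other settings. Of the 35 members 20 kept both call and direction with these offsets. The part of length in the calls of the other members was not tested beyond that fit.

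**Figure D4:**
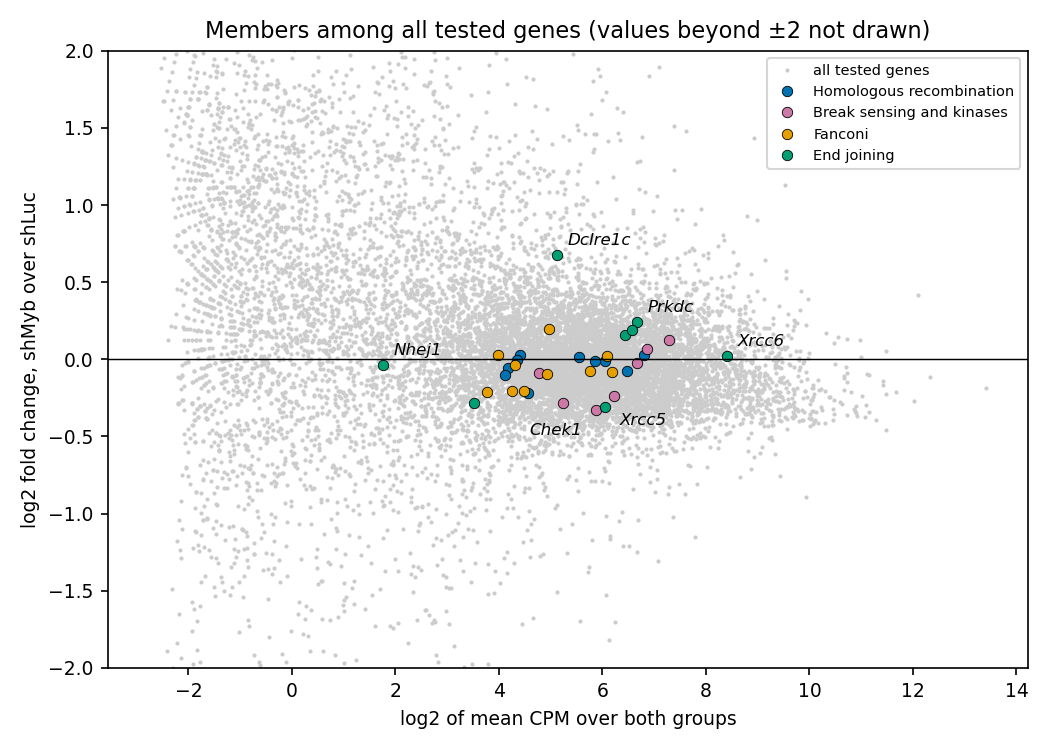
Log2 fold change, shMyb over shLuc, against the log2 of mean CPM for all tested genes (grey) and for the 35 members (coloured by role group); values beyond 2 in size are not drawn. The members sit inside the cloud of other genes. Dclre1c (0.68) is the highest member, with 86.9% of tested genes below it. Chek1 (-0.33) and Xrcc5 (-0.31) are the lowest, with 14.2% and 15.5% of tested genes below them.

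Levels per length were ordered by their mean over all libraries, and no order was made for each group. Divided by the length of the longest transcript, Xrcc6 was by far the most abundant, at a mean of 104 CPM per kilobase in shMyb and 102 in shLuc. Xrcc5 followed at 23.1 and 28.6 CPM per kilobase, and its libraries overlapped those of Rad50 (23.2 and 22.2). Blm, Lig4, Brca1 and Atm lay between 15.1 and 19.0 CPM per kilobase in group means. Chek1 and Nbn lay in that range in shLuc (17.3 and 16.4) but not in shMyb (13.8 and 13.4). Most neighbours below Atm in this order overlapped in their single libraries. Dclre1c was among the lowest, at 6.09 CPM per kilobase in shMyb and 3.81 in shLuc, and Xrcc4 (3.003 and 3.65) and Nhej1 (3.16 and 3.25) were at the bottom. Longest transcripts may not be those that the cells use, which limits this order.

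**Figure D5:**
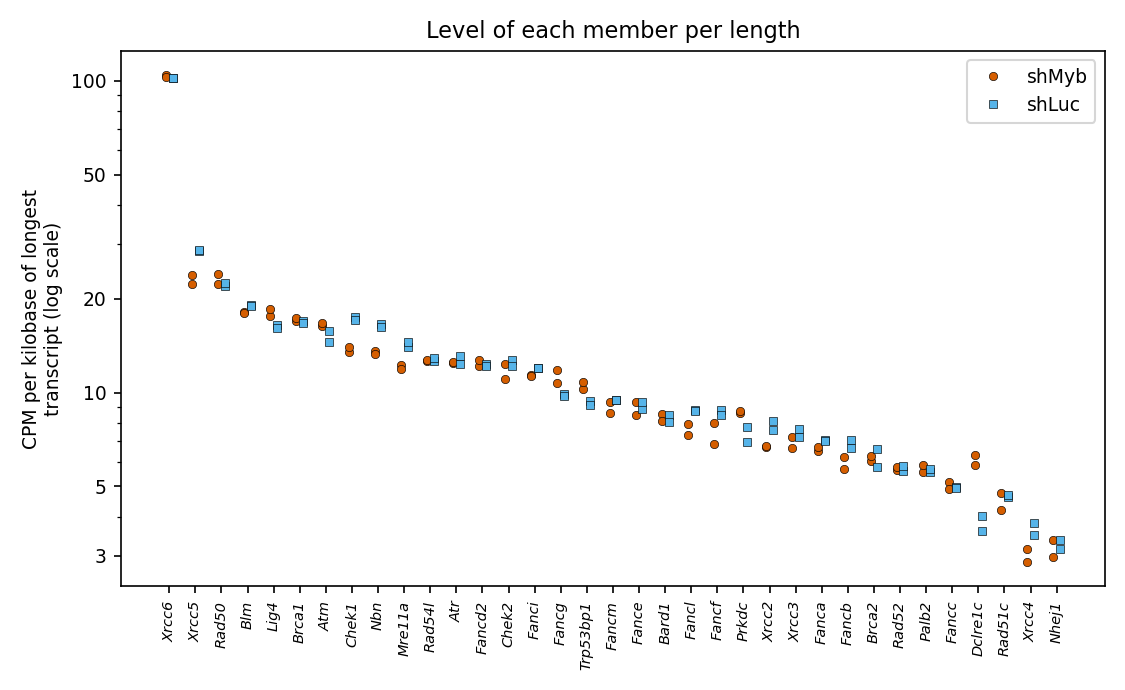
CPM per kilobase of the longest annotated transcript for the 35 members in each library, on a log axis, ordered by the mean over the libraries; circles are shMyb and squares shLuc. Xrcc6 stands apart at the top with 104 and 102 CPM per kilobase in group means, and Nhej1 and Xrcc4 are at the bottom.

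Other genes of the same pathways were taken from lists that were chosen with earlier results known. Of 30 further recombination and Fanconi genes 4 rose, 13 fell and 13 did not pass, against 62.2% called of all tested genes (median log2 fold change -0.08). Rpa2 and Rpa3, subunits of the protein that coats single-stranded DNA, fell by 0.35 and 0.30 on the log2 scale, while Uimc1, whose product RAP80 brings BRCA1 to ubiquitin chains, and the nuclease gene Mus81 rose by 0.31 and 0.30. Of 13 further genes of end joining, single-strand repair and 53BP1 effectors 3 rose and 2 fell (median -0.02). Polm, a gap-filling polymerase of end joining, rose to 6.75 and 7.03 CPM in shMyb, against 1.73 and 2.25 CPM in shLuc (1.78, adjusted p = 1.44e-10). Dntt, the terminal transferase that adds bases at V(D)J junctions, fell to 685 and 681 CPM, against 1249 and 1290 CPM in shLuc (-0.89, adjusted p = 2.83e-16). Parp1, a sensor of strand breaks, fell by 0.43. Of 15 damage signalling genes 1 rose and 6 fell (median -0.06), among them Tipin (-0.29), Hus1 (-0.24) and Rad1 (-0.21), and Mdc1, a scaffold at damaged chromatin, rose by 0.20.

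Cell cycle genes give the setting for the recombination genes. Of 20 replication genes 17 fell, none rose and 3 did not pass (median -0.24), and of 15 mitosis genes 9 fell and 2 rose (median -0.11), where 31.7% of all tested genes were lower and 30.6% higher. Their summed levels were 4758 and 4666 CPM in shMyb against 5523 and 5654 CPM in shLuc for replication, and 5036 and 4901 CPM against 5243 and 5265 CPM for mitosis. The 10 recombination genes summed to 466 and 469.9 CPM in shMyb and 481 and 472 CPM in shLuc. The part of cell cycle phase in these values was not tested.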

How the data were processed

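RNA-seq counts of 4 libraries (2 shMyb, 2 shLuc) were used. Each deposited file holds the raw counts of 1 library by gene symbol. Per the submitters' processing notes, FastQC, STAR, HTSeq, DESeq2 and mm10 were used, with neither versions nor roles; the sources used here name no annotation, strand setting or filter, so reads of genes that overlap on opposite strands may not be separated. Exons of 18 of the 35 members overlap such a gene. Duplicates differed by more than counting noise (chi-square per degree of freedom 4.24 in shMyb and 3.81 in shLuc) and counted separately.

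The test was that of edgeR 4.0.16 (R 4.3.3), shMyb over shLuc, with filterByExpr at a minimum count of 10, TMM scaling, glmQLFit with robust=TRUE and glmQLFTest, and no term but group. Benjamini-Hochberg adjustment of p-values ran over 12610 genes, and calls are at an adjusted p below 0.05. CPM use TMM-scaled library sizes, and an SE is the log2 fold change divided by the square root of F. Coordinates and lengths are those of GENCODE M21 (GRCm38, also called mm10), 1-based; 21760 symbols matched by name, 1275 through an older symbol and 385 not. A list entry written Claspn was read as Clspn and Adgre1 as Emr1, and Paxx and Trbc1 are not analysed here.

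The members, lists and alternatives were chosen with earlier results of these data known. All 35 members were to be named, with values per library for called members at 0.3 or more on the log2 scale and for 9 set genes; values per library of the other called members, and of Blm, Rad50, Fanci and Nhej1, were added after the results were seen. Of each further pathway list, up to 4 called genes with the largest change and at least 5 CPM in a group were named; 1 of these is not reported here. Partner ratios, length and motifs were added later. Alternatives were RLE, library totals, no filter, 1 CPM in 2 libraries, DESeq2 1.42.0, limma-voom 3.58.1, a replicate block, each library left out, cyclic loess offsets, GC and length offsets, and a crossed block added after the data were seen.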

Additional observations from a re-analysis of the deposited data

How the results depend on the processing

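Of the 15 member calls, 8 held in all 14 alternatives, 4 lower (Chek1, Mre11a, Nbn, Xrcc5) and 4 higher (Dclre1c, Prkdc, Lig4, Trp53bp1). RLE scaling, limma-voom and the replicate block changed no member's call or direction. With DESeq2, 5 members were lower, and of the recombination, sensing and Fanconi genes 4 were lower and 0 higher (the medians were -0.070 for these and 0.077 for end joining), with 1 end joining gene lower. With library totals 4 of the recombination, sensing and Fanconi genes were higher and the medians were 0.0050 and 0.15. The medians were -0.073 and 0.073 without a low-count filter, -0.046 and 0.10 with the filter of 1 CPM, -0.038 and 0.15 with cyclic loess offsets, and -0.012 and 0.058 with GC and length offsets, where 1 end joining gene was lower; the cause was not tested. Leaving out a library gave medians from -0.078 to -0.025 and from 0.085 to 0.10. Members called lower numbered 6 to 9, recombination, sensing and Fanconi genes called higher 1 to 3 (1 without shMyb replicate 2 or shLuc replicate 2), and end joining genes called lower 1 to 2 (1 without shLuc replicate 2).

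Members that did not pass the test changed sign as follows, and none of them was called after the change. With library totals the log2 fold changes were Brca2 0.052, Rad51c 0.0050, Rad52 0.060, Rad54l 0.054, Atr 0.040, Fance 0.029 and Nhej1 0.024. Bard1 was at -0.0035 with no filter, and with the 1 CPM filter Brca2 was at 0.0015, Rad52 at 0.0096 and Rad54l at 0.0032. With cyclic loess Brca2 was at 0.028, Rad52 at 0.0056, Rad54l at 0.030 and Atr at 0.017. With GC and length offsets Rad51c was at 0.036, Rad52 0.077, Rad54l 0.032, Blm 0.0043, Atr 0.022, Chek2 0.0034, Fancc -0.019 and Xrcc6 -0.041. With a library left out the lowest and highest values were -0.10 and 0.076 for Brca2, -0.025 and 0.047 for Bard1, -0.039 and 0.029 for Rad52, -0.035 and 0.011 for Rad54l, -0.015 and 0.065 for Palb2, -0.15 and 0.031 for Rad51c, -0.065 and 0.013 for Atr, -0.010 and 0.062 for Fancc, -0.0098 and 0.054 for Fancd2, -0.10 and 0.029 for Fance, and -0.14 and 0.050 for Nhej1.

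Same-numbered libraries deviated in opposite directions (r = -0.19 across genes), and the numbers of the labels were not taken as pairs. The replicate block gave 6 members higher and 9 lower, medians of -0.06 and 0.09, and 3632 and 3709 of all genes. With crossed numbers, added after the data were seen, 6 members were higher and 11 lower. At this depth a gene such as Nhej1, with 117 to 154 counts, has an interval of -0.36 to 0.28, which holds the log2 fold change of every other member but Dclre1c.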
